A study of Homo sapiens with 12 samples.

Results

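CCL218 is a colorectal adenocarcinoma line that the study describes as derived from HT29 cells, and hydroxychloroquine (HCQ) is an antimalarial weak base that collects in lysosomes and blocks the last step of autophagy. The comparison described here sets 3 HCQ-evolved pools of CCL218 against 3 control pools, 6 of the 12 bulk RNA-seq libraries of the series. It was read over every gene with at least 1 CPM (count scaled to library size with TMM factors, per 1e+06 counts) in at least 3 of these 6 libraries, which were 12241 of 28278 genes in the count table. The other 6 libraries are the same design in cells labelled OVCAR3, an ovarian cancer line.

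The HCQ-evolved cells grew in a 96-well plate through 15 pulse-chases of drug, each with 48 h of exposure followed by growth without drug, at doses that went from 20 to 50 µM, and the highest dose was reached at passage 7. They were collected at passage 15 after 7 days without HCQ, and the control plate was passaged in parallel without HCQ and collected at passage 19. Passage number and HCQ history therefore cannot be told apart. Each pool joined 31 well isolates from the left (L), middle (M) or right (R) part of a plate, so a value is a mixture over many isolates, and the 3 pools of a group come from 1 plate. In bulk RNA a change in the share of isolates that express a gene and a change within every isolate cannot be told apart.

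Libraries held 41399593 to 56067292 counts. Control L stood apart from the other control pools before any comparison of treatments. The SD over genes of its log2 difference to control M and control R was 0.69 and 0.62, against 0.24 between control M and control R and 0.22 to 0.29 among the HCQ-evolved pools. Deviations from the mean of all 6 pools, which include the difference between groups, moved with transcript length over genes in several pools. Spearman's rho was -0.51, 0.48 and 0.04 in control L, M and R, and -0.22, 0.30 and 0.47 in HCQ-evolved L, M and R. All comparisons were also run without control L, and those values are given beside the results it moved most. Of the 24 colon epithelial markers, CDX1, KRT20, ISX, SLC26A3 and CA1 were under 1 CPM in all 6 pools, while VIL1 and LGALS4 were at 168 to 212 and 768 to 1445 CPM. Of 16 fibroblast markers 14 were under 1 CPM in all pools, with a summed level of 4.20 to 6.51 CPM in control and 5.22 to 6.18 CPM in HCQ-evolved pools. Of 12 blood cell markers 9 were under 1 CPM, PTPRC and CD3E among them, but their summed level was 2117 to 2414 CPM in control and 1806 to 2054 CPM in HCQ-evolved pools. Nearly all of it was lysozyme (LYZ, 1748 to 2394 CPM over the pools), and CD14 and CD68 were also above 1 CPM.

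Cells short of oxygen keep the alpha subunit of hypoxia-inducible factor (HIF) because prolyl hydroxylases of the EGLN family stop marking it for destruction, and HIF then switches on genes for glucose uptake, glycolysis, lactate export, collagen hydroxylation and vessel growth. In the gut, WNT signals at the crypt base hold stem cells that express LGR5 and ASCL2, and their daughters become absorptive cells with brush border and adhesion proteins or secretory cells that make mucus. Autophagy delivers cell contents to the lysosome, where HCQ accumulates.

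HCQ-evolved pools had 468 genes higher (3.82% of those tested) and 323 lower (2.64%) than control pools at an adjusted p under 0.05 in edgeR's quasi-likelihood test with Benjamini-Hochberg adjustment. Among called genes with a mean of 5 CPM or more in the higher group, the 15 largest increases included a sialyltransferase, a fatty acid epoxygenase, an iron transporter and adhesion proteins of the gut epithelium, and the 15 largest decreases included a vesicle priming factor, a nicotinamide methyltransferase and WNT targets. The median size of the log2 fold change was 1.04 among the genes that rose and 1.01 among those that fell. All 791 had pools that did not overlap, but so did 35.9% of all genes tested, so a gap between groups of 3 pools alone was common. Over all genes the median log2 fold change was -0.02 and 48.3% were above 0. Without control L, 1646 genes were higher (13.6% of those tested) and 1401 lower (11.6%), and these held all 468 and 281 of the 323 genes above, the other 42 having dropped below the expression filter. With plate position as a block, 957 genes were higher (7.82%) and 787 lower (6.43%), with all 468 and 323 among them. Counts for lists below are to be read beside these shares over all genes, each in its own fit. Without control M the counts were 296 and 147, without control R 112 and 33, and without any of the HCQ-evolved pools, L, M or R, 72 to 108 and 30 to 39, with control L still in each of these fits.

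**Figure D1:**
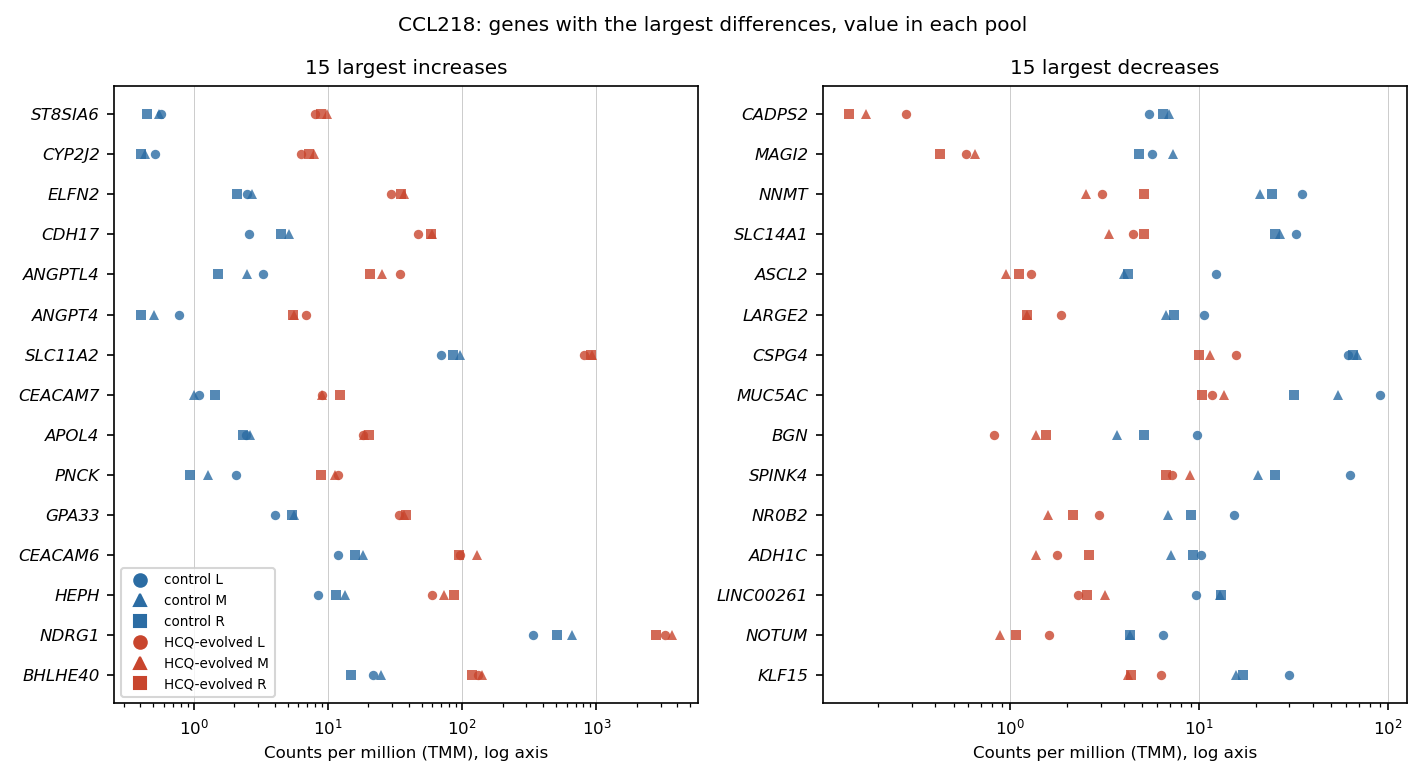
Each row is a gene and each point a pool, with CPM on a log axis, control pools in blue and HCQ-evolved pools in red, and the symbol giving the plate position (L, M, R). The 15 largest increases and the 15 largest decreases among genes called by edgeR with a mean of 5 CPM or more in the higher group are shown, and in every row the red and blue points do not overlap.

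SLC11A2 (ENSG00000110911.17, chromosome 12, 50979401 to 51028566, minus strand, hg38), the divalent metal transporter that brings iron into enterocytes, was at 69.3, 95.6 and 84.9 CPM in control L, M and R and at 805, 925 and 918 CPM in HCQ-evolved L, M and R. Every HCQ-evolved pool was thus several times above every control pool, and the 3 agreed closely. The log2 fold change was 3.41 (SE 0.17, 10.6-fold, edgeR adjusted p = 0.00032). HEPH, the ferroxidase hephaestin that loads iron for export, was at 11.1 ± 2.5 CPM in control and 73.0 ± 13.2 CPM in HCQ-evolved pools (SD, n = 3), with no overlap and a log2 fold change of 2.72 (SE 0.23, adjusted p = 0.00187). Of 28 tested genes of iron uptake, storage and export, 4 rose and 1 fell, and the others that rose were the ferrireductase CYBRD1 (1.48) and HFE (0.63), a regulator of hepcidin. The zinc and iron importer SLC39A8 fell by 1.06 on the log2 scale. The list's median log2 fold change was 0.23, and 0.05 without control L. With position as a block 7 rose and 1 fell, and without control L 6 rose and 2 fell.

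CYP2J2 (ENSG00000134716.11, chromosome 1, 59893308 to 59926773, minus strand), an epoxygenase of arachidonic acid that also oxidises drugs, was near the detection limit in control pools, at 0.519, 0.434 and 0.404 CPM, and at 6.33, 7.90 and 7.23 CPM in HCQ-evolved pools. The groups were far apart and the log2 fold change was 3.98 (SE 0.22, adjusted p = 0.000453). ABCB1, the P-glycoprotein drug efflux pump, was at 0.545, 0.616 and 0.988 CPM in control and 4.09, 4.39 and 4.15 CPM in HCQ-evolved pools (log2 fold change 2.54, SE 0.27, adjusted p = 0.00404). Of 31 tested drug efflux and cytochrome P450 genes 7 rose and 4 fell around a median of -0.03. CYP4F3, SLC22A4 (an organic cation transporter), ABCG1, SLC22A3 and SLC22A5 completed the increases, and CYP24A1, CYP2B6, ABCC5 and CYP4V2 made up the decreases, so calls went in both directions.

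ST8SIA6 (chromosome 10, 17315421 to 17454595, minus strand), which adds sialic acid to sialic acid on glycans, was at 0.570, 0.548 and 0.449 CPM in control and 7.99, 9.78 and 8.86 CPM in HCQ-evolved pools, the highest log2 fold change among the genes named by size (4.08, SE 0.21, adjusted p = 0.00032). It met the expression filter only because of its HCQ-evolved pools, as did CYP2J2, ABCB1 and ANGPT4. Being high there was thus a condition of their being tested. Among 29 tested sialyltransferases and glycan branching enzymes, 5 rose and 1 fell. MGAT3, which adds the bisecting N-acetylglucosamine, rose by 1.84 and MGAT4A by 1.64, the fucosyltransferase FUT3 by 1.13 and the sulfotransferase CHST11 by 1.46 (1.89 without control L), while ST6GALNAC1, which makes the sialyl-Tn antigen of mucins, fell by 1.72 on the log2 scale. Without control L 9 rose and 2 fell.

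Hypoxia-inducible genes outside glycolysis made up the list with the largest share of calls. Of 39 tested, 24 rose and 0 fell, against 3.82% and 2.64% over all genes, with a median log2 fold change of 1.09 (1.20 without control L) against -0.02 over all genes. Medians of the list in HCQ-evolved L, M and R against the mean of the control pools were 1.14, 1.08 and 1.10, so the 3 pools were alike. At an unadjusted p under 0.05 the counts were 29 higher and 1 lower, by DESeq2 28 and 1, and by limma voom 24 and 0.

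NDRG1, a stress-responsive gene of epithelial differentiation, was at 335, 656 and 506 CPM in control and 3261, 3646 and 2799 CPM in HCQ-evolved pools, and was among the 10 most abundant genes that rose. Its log2 fold change was 2.70 (SE 0.27, adjusted p = 0.00357). ANGPTL4, an inhibitor of lipoprotein lipase, was at 3.29, 2.49 and 1.504 CPM in control and 34.3, 25.2 and 20.6 CPM in HCQ-evolved pools (3.46, SE 0.33). ANGPT4, an angiopoietin ligand, rose by 3.42 (SE 0.28), and VEGFA, the main vessel growth factor, went from 161, 191 and 164 CPM to 507, 537 and 452 CPM (1.54, SE 0.13, adjusted p = 0.00199). In each of these genes the lowest HCQ-evolved pool was above the highest control pool.

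The collagen prolyl hydroxylase subunit P4HA2 had 61.0, 63.3 and 57.5 CPM in control and 309, 338 and 275 CPM in HCQ-evolved pools (2.34, SE 0.13, adjusted p = 0.000453), and P4HA1 and the lysyl hydroxylase PLOD2 rose by 2.28 and 1.57. The transcriptional repressor BHLHE40 rose by 2.67, DDIT4, an inhibitor of mTORC1, by 1.90, VLDLR by 2.03, and the mitophagy receptor BNIP3L by 1.27. KDM3A, a histone H3 lysine 9 demethylase, went from 57.6, 79.8 and 61.8 CPM to 118, 140 and 130 CPM (0.96, SE 0.16, adjusted p = 0.0184).

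Among oxygen sensing genes and HIF subunits 2 of 14 tested rose and 0 fell (4 and 0 at an unadjusted p under 0.05, by DESeq2 and with position as a block, 5 and 0 without control L). The 2 that rose in edgeR were the oxygen-sensing hydroxylases EGLN3 (43.95, 37.6 and 30.3 CPM in control, 180, 179 and 150 CPM in HCQ-evolved pools, log2 fold change 2.19, SE 0.17) and EGLN1 (1.15, SE 0.15), both of which are also HIF targets and stand in the list above. HIF1A, the HIF alpha subunit itself, had a log2 fold change of 0.24 with all pools and -0.10 without control L, and passed in neither fit. No protein was measured here.

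**Figure D2:**
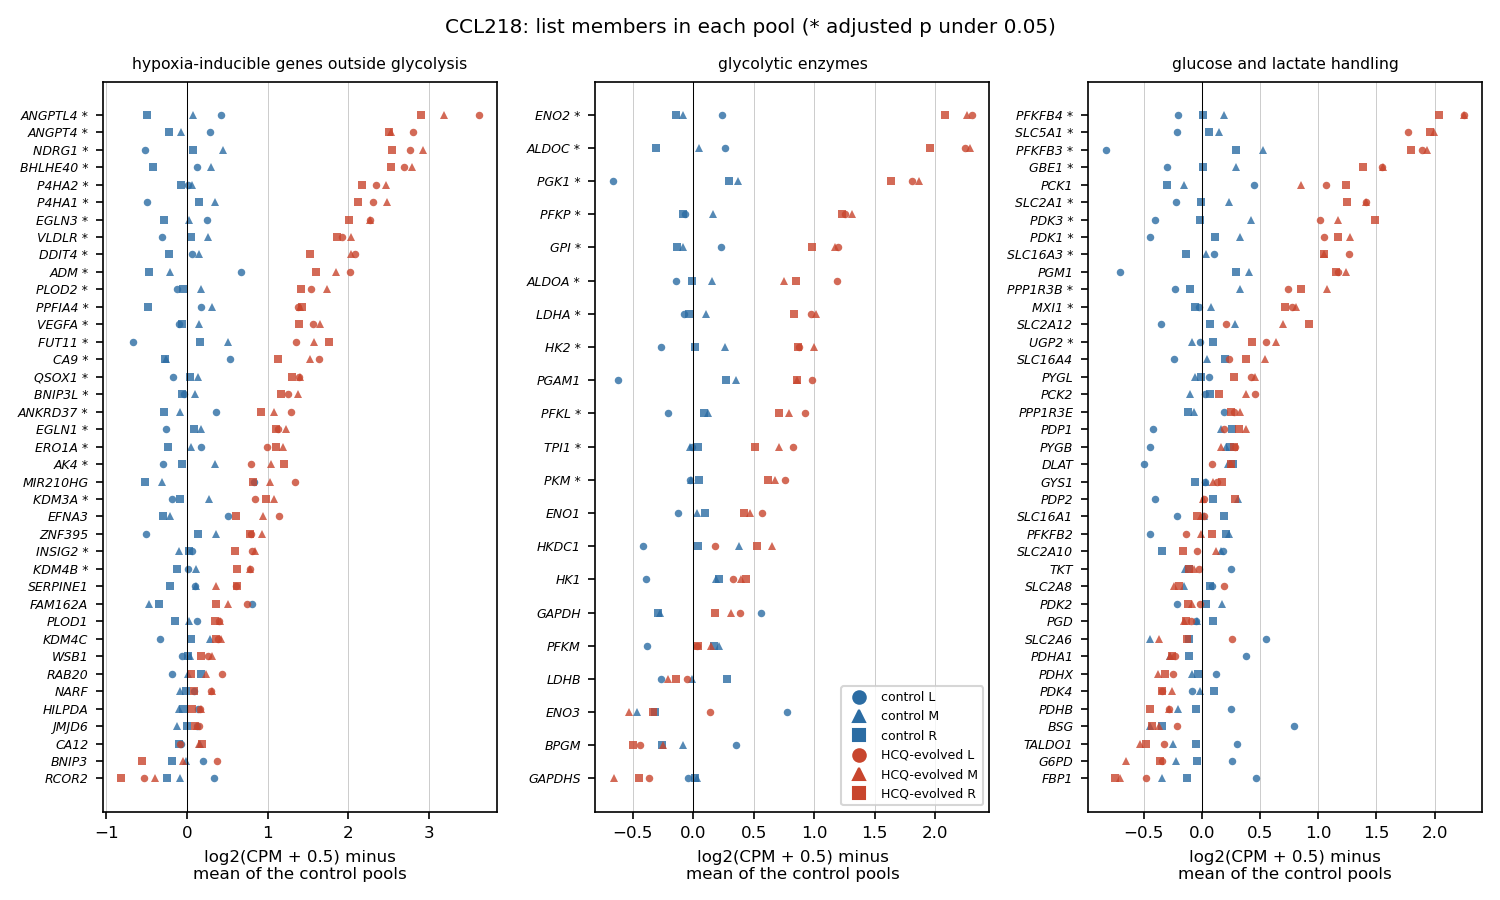
Each row is a gene and each point a pool, as log2(CPM + 0.5) minus the mean of the 3 control pools, for the tested members of the lists of hypoxia-inducible genes outside glycolysis, glycolytic enzymes, and glucose and lactate handling. Stars mark genes with an edgeR adjusted p under 0.05, which are 24 of 39, 11 of 21 and 11 of 39, all of them with HCQ-evolved pools (red) to the right of control pools (blue).

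Of 21 tested glycolytic enzymes 11 rose and 0 fell, with a median log2 fold change of 0.69 (0.66 without control L). At an unadjusted p under 0.05 and by DESeq2 the counts were 13 and 1. ENO2, the neuronal form of enolase, was at 34.6, 27.5 and 26.5 CPM in control and 147, 143 and 126 CPM in HCQ-evolved pools (2.23, SE 0.15, adjusted p = 0.00102). ALDOC, the brain form of aldolase, rose by 2.16 and PFKP, the platelet form of phosphofructokinase, by 1.26. The abundant enzymes also rose. PGK1 was at 449, 916 and 871 CPM in control and 2487, 2593 and 2204 CPM in HCQ-evolved pools (1.70, SE 0.28, and 1.43 without control L, its lowest pool), PKM went from 2704, 2716 and 2837 CPM to 4651, 4388 and 4220 CPM (0.68, SE 0.13, adjusted p = 0.0289), and GPI, LDHA and TPI1 rose by 1.11, 0.94 and 0.69. ENO1, the widespread enolase, was at 1203, 1341 and 1405 CPM in control and 1944, 1822 and 1757 CPM in HCQ-evolved pools. These pools did not overlap, but its adjusted p was 0.0763 (log2 fold change 0.48, SE 0.13).

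Genes that handle glucose and lactate around the pathway had 11 of 39 tested higher and 0 lower in edgeR, with a median of 0.21, against 16 and 5 at an unadjusted p under 0.05, 14 and 2 by DESeq2 and 14 and 3 without control L. The 11 were the glucose transporters SLC2A1 (533, 730 and 619 CPM in control, 1660, 1654 and 1481 CPM in HCQ-evolved pools, 1.35, SE 0.16) and SLC5A1 (1.92), the lactate exporter SLC16A3 (1.13), the kinases PFKFB3 and PFKFB4 that set the main allosteric activator of phosphofructokinase (1.78 and 2.21), and the glycogen enzymes GBE1, UGP2 and PPP1R3B (1.53, 0.54 and 0.88), with PDK1 and PDK3, which turn off pyruvate dehydrogenase, and MXI1. PDK3 had 6.64, 12.2 and 8.84 CPM in control and 18.6, 20.8 and 26.0 CPM in HCQ-evolved pools (1.24, SE 0.25, adjusted p = 0.0323). For the oxidative side, 0 of 25 tricarboxylic acid cycle enzymes and 0 of 76 respiratory chain subunits passed in edgeR or limma voom. At an unadjusted p under 0.05 these lists had 5 higher and 0 lower, and 3 higher and 3 lower. By DESeq2 they had 3 and 0, and 3 and 1, with position as a block 3 and 0, and 3 and 3, and without control L 4 and 0, and 5 and 0. The respiratory chain median was -0.32 with all pools and 0.00 without control L, so its sign rested on that library.

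A form of the core of the DNA element that HIF binds is ACGTG, called the core below, and other forms were not searched. ACGTG was searched on both strands (as ACGTG or CACGT, overlapping matches counted as 1 site) in the 250 bases before the annotated start of each tested gene. RefSeq promoters on GRCh38.p14 were used, which matched 9655 of the 12241 genes by symbol. The core was present before 23.5% of these genes, 25.5% of those that rose and 26.9% of those that fell. Among hypoxia-inducible genes outside glycolysis it was present in 21 of 29 (72.4%), called or not, and in 15 of the 20 that rose. Among glycolytic enzymes it was present in 9 of 21 (42.9%) and in 7 of the 11 that rose, and among genes that handle glucose and lactate in 8 of 32 and in 3 of the 10 that rose. The hypoxia list was picked as genes known to be hypoxia-inducible, so its share describes the choice of members and is no result of these pools. A match is a description of these letters and not a measured binding site. The stretches below are 60 bases each, 5′ to 3′ on the strand of the gene, for 6 genes of these lists that rose with small p and hold the core, which is shown in capitals.
ENO2: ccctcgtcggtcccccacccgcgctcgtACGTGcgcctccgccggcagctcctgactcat
BHLHE40: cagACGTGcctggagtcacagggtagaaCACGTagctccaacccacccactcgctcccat
ANGPT4: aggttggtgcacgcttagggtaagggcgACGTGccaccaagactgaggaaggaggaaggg
ALDOC: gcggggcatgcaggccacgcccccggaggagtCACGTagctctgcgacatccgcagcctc
PLOD2: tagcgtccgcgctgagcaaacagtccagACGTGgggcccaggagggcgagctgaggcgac
QSOX1: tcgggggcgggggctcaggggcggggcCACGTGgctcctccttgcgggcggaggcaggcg
They lie at chr12:6914434-6914493 (plus strand, ENO2), chr3:4979260-4979319 (plus, BHLHE40), chr20:916459-916518 (minus, ANGPT4), chr17:28576896-28576955 (minus, ALDOC), chr3:146161299-146161358 (minus, PLOD2) and chr1:180154784-180154843 (plus, QSOX1, a sulfhydryl oxidase of secreted proteins that rose by 1.36). BHLHE40 holds 3 such sites in its 250 bases, and ENO2 and ANGPT4 hold 1 each.

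Colon epithelial markers, a list that mixes absorptive, secretory and stem cell genes, had 6 of 18 tested higher and 2 lower (8 and 4 with position as a block, 9 and 4 without control L). The members called lower were the stem cell genes LGR5 and ASCL2. In all, 11 members were above 0 and 7 below, and pools did not overlap for 8 higher and 5 lower. LGALS4 was at 1445, 934 and 925 CPM in control and 874, 829 and 768 CPM in HCQ-evolved pools. REG4 was at 54.9, 41.6 and 44.9 CPM in control and 34.8, 34.1 and 32.1 CPM in HCQ-evolved pools. Neither gene was called, although their pools did not overlap. CDH17 (ENSG00000079112.10, chromosome 8, 94127162 to 94217303, minus strand), the liver-intestine cadherin, was at 2.57, 5.11 and 4.44 CPM in control and 47.1, 60.1 and 58.1 CPM in HCQ-evolved pools (log2 fold change 3.77, SE 0.27, adjusted p = 0.0012). GPA33, a surface antigen of intestinal epithelium, was at 4.02, 5.59 and 5.43 CPM in control and 33.8, 37.0 and 38.3 CPM in HCQ-evolved pools (2.86, SE 0.17). The carcinoembryonic antigens CEACAM5, CEACAM6 and CEACAM7 rose by 2.10, 2.79 and 3.10, the transmembrane mucin MUC13 by 1.37, and CDX2, a transcription factor of intestinal identity, went from 28.0, 22.2 and 23.1 CPM to 73.3, 65.1 and 75.0 CPM (1.54, SE 0.14, adjusted p = 0.00275). CEACAM1, of the same family, had a log2 fold change of 0.02, with control pools at 170, 219 and 192 CPM and HCQ-evolved pools at 187, 195 and 209 CPM, which overlap. Among genes of epithelial adhesion and keratins 4 of 28 tested rose (CDH17, DSG2, CLDN7 and the transcription factor ELF3) and CLDN2 and GRHL3 fell. With position as a block 10 rose and 3 fell, and without control L 14 and 5.

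WNT feedback and intestinal stem cell genes had 6 of 19 tested lower and 1 higher, with a median log2 fold change of -0.36 (-0.40 without control L). DKK1, a secreted WNT inhibitor, was at 18.7, 15.1 and 14.4 CPM in control and 4.18, 3.68 and 4.27 CPM in HCQ-evolved pools (-1.99, SE 0.16, adjusted p = 0.00164). LGR5, the stem cell receptor for R-spondin, was at 29.1, 43.3 and 45.9 CPM in control and 16.7, 15.7 and 19.8 CPM in HCQ-evolved pools (-1.18, SE 0.20, adjusted p = 0.021). ASCL2, the stem cell transcription factor, was at 12.2, 3.97 and 4.22 CPM in control and 1.29, 0.954 and 1.11 CPM in HCQ-evolved pools, so its change of -2.60 became -1.88 without control L. NOTUM, a WNT deacylase, fell by 2.08, the transcription factor PROX1 by 0.85 and the adhesion receptor CD44 by 0.73 on the log2 scale. EPHB2, another WNT target of the crypt base, rose by 0.83. Counts were 2 higher and 8 lower with position as a block, and 3 and 10 without control L.

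Secretory and mucin genes had 7 of 25 tested lower and 2 higher. MUC5AC, a gel-forming mucin, was at 91.0, 54.3 and 31.9 CPM in control and 11.7, 13.6 and 10.4 CPM in HCQ-evolved pools (-2.31, SE 0.37, adjusted p = 0.0163), and SPINK4, a goblet cell product, went from 63.1, 20.5 and 25.1 CPM to 7.19, 8.94 and 6.70 CPM (-2.25). In both genes control L was the highest pool, and without it the changes were -1.87 and -1.59. MUC2, the main gel-forming mucin of the colon, was at 83.1, 50.5 and 29.9 CPM against 13.999, 21.4 and 20.1 CPM and was not called with all pools (-1.56, adjusted p = 0.0531), and was called with position as a block (adjusted p = 0.0185) and without control L (-1.13, adjusted p = 0.00497). ATOH1 and GFI1, transcription factors of the secretory lineage, fell by 0.70 and 1.13, and FOXA1 by 0.56. The list's median was -0.49, and -0.23 without control L. MUC13 and MUC1, which are membrane-bound and not gel-forming, were the members that rose. With position as a block 3 rose and 10 fell, and without control L 5 and 10.

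The largest decrease among genes named by size was in CADPS2 (ENSG00000081803.17, chromosome 7, 122318411 to 122886759, minus strand), a factor that primes dense-core vesicles for release. It was at 5.45, 6.94 and 6.44 CPM in control and 0.280, 0.172 and 0.141 CPM in HCQ-evolved pools (-4.99, SE 0.30, adjusted p = 0.000608). Of 26 tested neuroendocrine and regulated exocytosis genes 3 fell and 0 rose (4 and 1 at an unadjusted p under 0.05, 3 and 0 by DESeq2 and by voom), with a median of 0.05, and the other members that fell were RAB3B and STX1A (-0.89). Without control L 2 fell and 0 rose, but CADPS2 and RAB3B had dropped below the expression filter there and were not tested. NNMT (ENSG00000166741.8, chromosome 11, 114257787 to 114313536, plus strand), which methylates nicotinamide, was at 34.9, 21.04 and 24.4 CPM in control and 3.06, 2.52 and 5.08 CPM in HCQ-evolved pools (-2.91, SE 0.32, adjusted p = 0.00495). SLC14A1, a urea transporter, was at 32.5, 26.6 and 25.2 CPM in control and 4.48, 3.34 and 5.08 CPM in HCQ-evolved pools (-2.71, SE 0.20), and CSPG4, a surface proteoglycan, was at 61.6, 68.3 and 64.8 CPM against 15.7, 11.3 and 9.93 CPM (-2.40, SE 0.19). Every one of these genes had all control pools above all HCQ-evolved pools.

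**Figure D3:**
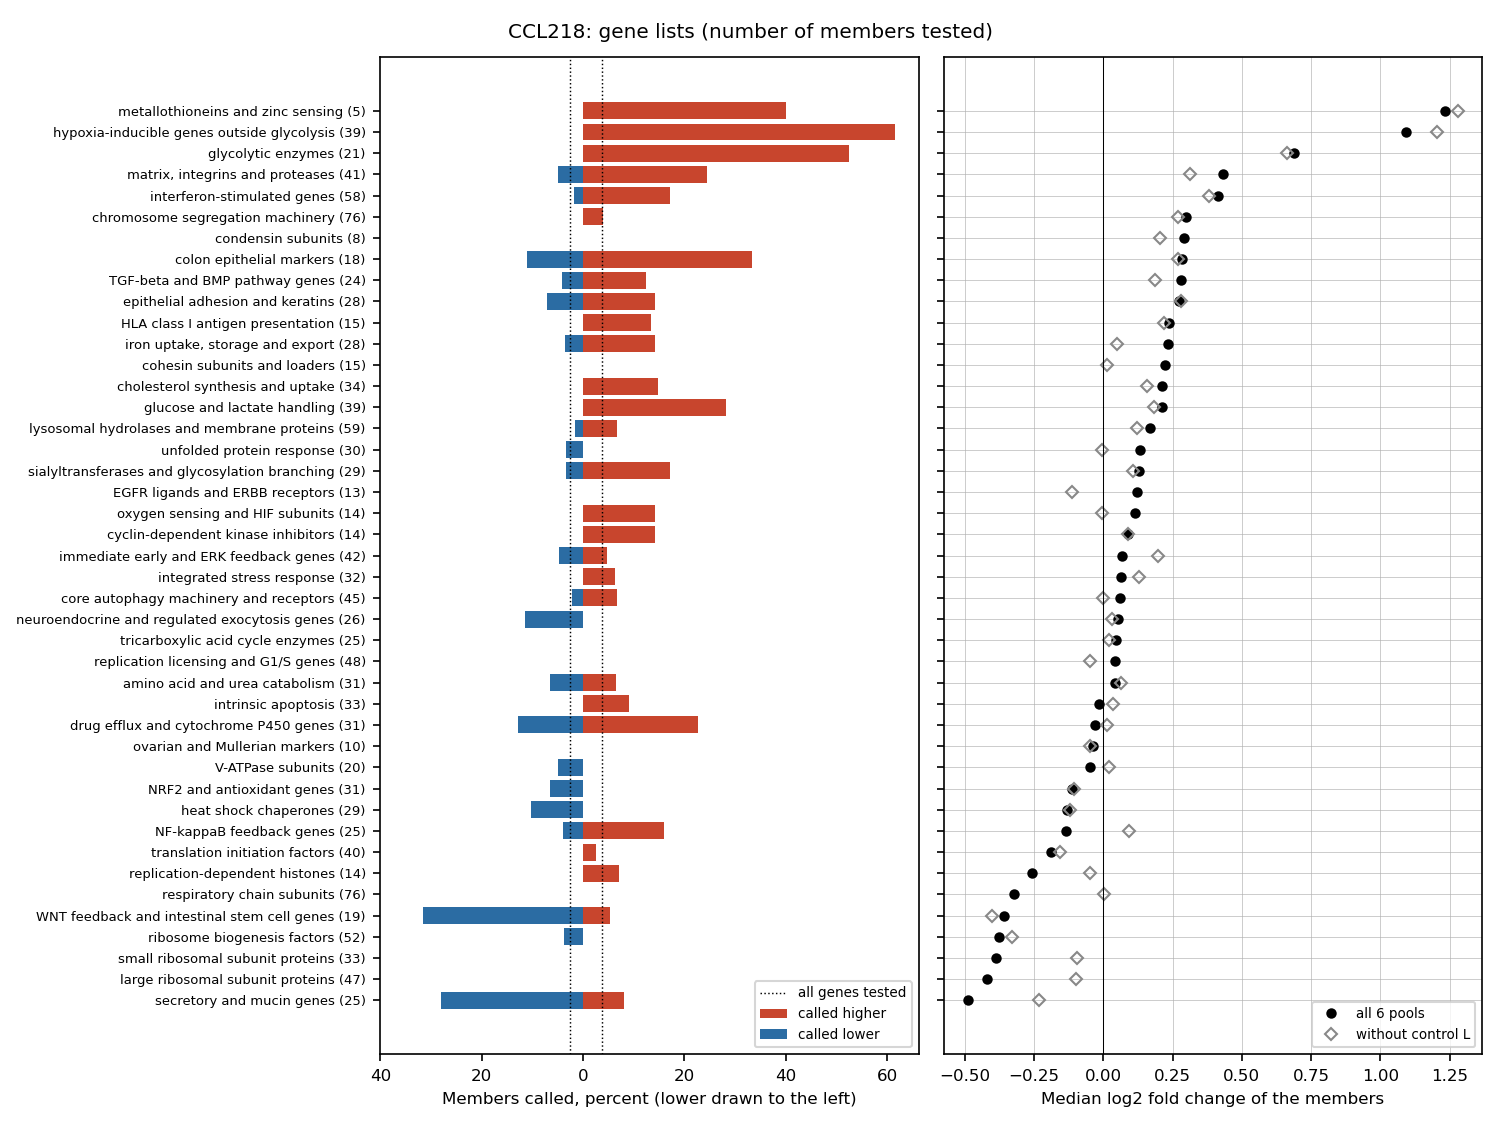
Gene lists with at least 5 tested members (number tested in brackets), with on the left the percent of members called higher (red, to the right) or lower (blue, to the left) by edgeR and dotted lines for all genes tested (3.82% and 2.64%), and on the right the median log2 fold change with all 6 pools (black) and without control L (open). Hypoxia-inducible genes and glycolytic enzymes have the largest shares called higher. The median is highest for the metallothionein and zinc list (1.23, 5 tested of 10 listed), followed by hypoxia-inducible genes (1.09) and glycolytic enzymes (0.69). The first of these places rests in part on MT1X, which met the expression filter only because of its HCQ-evolved pools. The ribosomal protein and respiratory chain medians move toward 0 without control L.

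Autophagy and lysosomal genes, of the pathway that HCQ blocks, were called higher at 6.67% and 6.78% of those tested, against 3.82% of all genes, and lower at 2.22% and 1.69%, against 2.64%. Of 45 tested core autophagy genes and receptors 3 rose and 1 fell, around a median of 0.06. ULK1, the kinase that starts autophagy, was at 53.8, 71.8 and 61.9 CPM in control and 164, 166 and 143 CPM in HCQ-evolved pools (1.33, SE 0.15, adjusted p = 0.00475), and the receptors OPTN and CALCOCO2 rose by 0.56 and 0.57. MAP1LC3A, a membrane-bound autophagy protein, was at 9.59, 3.77 and 4.44 CPM in control and 1.57, 1.37 and 1.41 CPM in HCQ-evolved pools (-2.03, and -1.51 without control L). Without control L 3 members rose and 4 fell. ATG101 overlapped between groups, at 44.1, 44.1 and 50.8 CPM against 47.9, 38.8 and 39.9 CPM (-0.14, adjusted p = 0.568). Among 59 tested lysosomal genes 4 rose, among them the cathepsin CTSS (1.17), FUCA1 and IDS, and the cathepsin CTSC fell by 0.64. With position as a block 6 rose and 3 fell, and without control L 15 and 5, where 13.6% of all genes rose and 11.6% fell. Of 20 V-ATPase subunits, which acidify the lysosome, 0 rose and 1 fell, the accessory subunit ATP6V0E2 (-0.99), against 1 higher and 3 lower at an unadjusted p under 0.05, by DESeq2 and without control L, and 0 and 2 with position as a block. CD68, a lysosomal membrane protein and macrophage marker, rose by 1.98 while the leukocyte marker PTPRC stayed under 1 CPM.

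Interferon-stimulated genes had 10 of 58 tested higher and 1 lower (IFITM2), with a median of 0.41 (0.38 without control L). With position as a block 16 rose, and without control L 28, with 1 lower in both. APOL1, APOL2 and APOL6 rose by 1.60, 1.05 and 1.25, with UBE2L6, GBP3, IFIT5, EPSTI1, PLSCR1, IFI44L and DHX58 between 0.59 and 1.22. APOL4, of the same gene cluster, was at 2.46, 2.65 and 2.33 CPM in control and 18.3, 18.5 and 20.2 CPM in HCQ-evolved pools (2.93, SE 0.14, adjusted p = 0.00032). APOL3, of the same family, was tested and was neither called nor above 0. HLA-B and HLA-C, which present antigen, rose by 1.31 and 1.02, the 2 members called of 15 tested in their list (5 without control L), and reads of such similar genes may be split between them.

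Matrix, integrin and protease genes had 10 of 41 tested higher and 2 lower, with a median of 0.43 (21 and 5 without control L). The laminin chains LAMA3 and LAMB3 rose by 1.13 and 1.03. LAMA3 was at 23.1, 28.7 and 23.3 CPM in control and 47.0, 55.6 and 61.3 CPM in HCQ-evolved pools. Tenascin TNC rose by 2.30, SERPINE2 by 1.53 and TIMP2 by 0.98, and the proteoglycan BGN (-2.29, and -1.80 without control L, its highest pool) and ADAMTS6 (-1.79) fell. Among TGF-beta and BMP pathway genes 3 of 24 tested rose and 1 fell, with 5 and 1 under the position block and 8 and 1 without control L. BMP2, a ligand of the pathway, was at 17.8, 30.99 and 24.2 CPM in control and 123, 126 and 114 CPM in HCQ-evolved pools (2.32, SE 0.21, adjusted p = 0.00275), while its target genes ID3 and ID2 moved in opposite directions (1.75 and -1.08).

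Sterol genes showed 5 of 34 tested higher and 0 lower in edgeR, 11 and 1 at an unadjusted p under 0.05, 9 and 1 by DESeq2, 8 and 1 with position as a block and 12 and 2 without control L. ACSS2, which makes acetyl-CoA from acetate, was at 30.4, 26.8 and 22.4 CPM in control and 74.8, 77.0 and 62.9 CPM in HCQ-evolved pools (1.43, SE 0.16), and MSMO1, INSIG1, INSIG2 and STARD4 rose by 0.86, 0.69, 0.76 and 0.95. The cyclin-dependent kinase inhibitors CDKN1A and CDKN2C rose by 1.19 and 1.06, 2 of 14 tested in their list (3 higher and 1 lower with position as a block, 5 and 2 without control L). CDKN1A (chromosome 6, 36676460 to 36687337, plus strand), known as p21, was at 20.1, 20.1 and 21.8 CPM in control and 54.9, 43.4 and 43.0 CPM in HCQ-evolved pools (adjusted p = 0.00603).

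Chromosome segregation genes mostly had small log2 fold changes above 0. Of 76 tested 60 had a log2 fold change above 0 and the median was 0.30 (0.27 without control L). With all pools 3 rose (3.95%, against 3.82% of all genes). With the position block 14 rose and 1 fell, where 7.82% and 6.43% of all genes did. Without control L 30 rose and 2 fell, where 13.6% and 11.6% of all genes did. NEK2, a centrosome kinase, was at 36.6, 40.8 and 41.5 CPM in control and 67.6, 69.0 and 61.1 CPM in HCQ-evolved pools (0.73, SE 0.12, adjusted p = 0.0192), and CDK1 and KIF2C rose by 0.63 and 0.56. CENPA, the centromeric histone, missed the threshold (0.52, SE 0.12, adjusted p = 0.0528) and passed it with position as a block (adjusted p = 0.0441) and without control L (0.45, adjusted p = 0.0106). All 8 condensin subunits were above 0, with a median of 0.29, and 0 passed in edgeR, DESeq2 or voom (2 higher at an unadjusted p under 0.05), at 0.45 for NCAPG (adjusted p = 0.174).

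Ribosomal protein medians moved toward 0 without control L. The medians of the 47 large and 33 small subunit proteins were -0.42 and -0.39 with all pools and -0.10 in both lists without control L, and 0 of them passed in edgeR or voom. At an unadjusted p under 0.05, 5 large and 1 small subunit genes were lower, by DESeq2 3 and 1, with position as a block 2 and 1, and without control L 3 and 1, with 0 higher in each. In control L these lists were above the mean of the control pools by medians of 0.60 and 0.58. Ribosome biogenesis factors were different in that their median of -0.38 stayed at -0.33 without control L. Of 52 tested 49 were below 0, and 2 fell with all pools (RRP12 and PPAN, 3.85% against 2.64% of all genes), 11 with the position block and 28 without control L, when 1 rose.

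**Figure D4:**
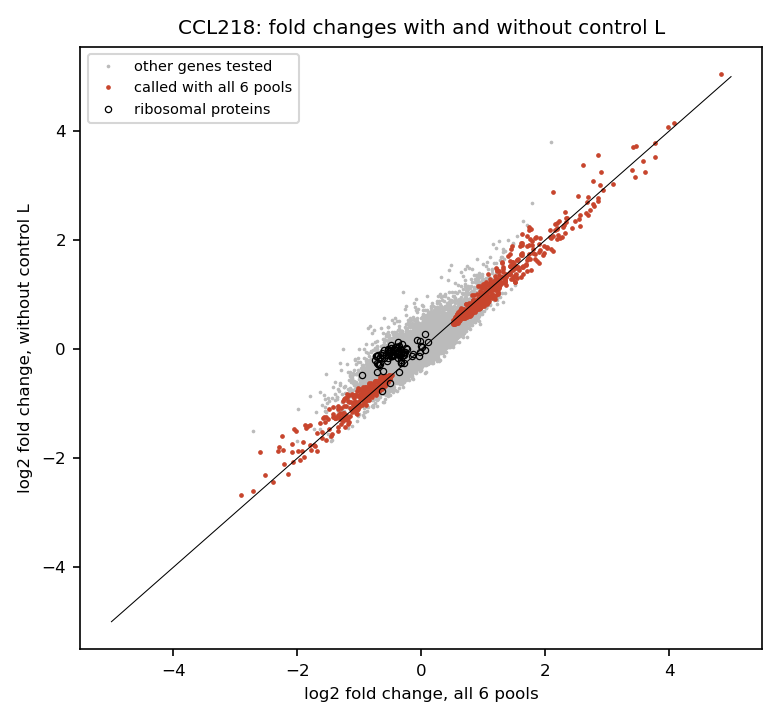
Each point is a gene tested in both fits, with the log2 fold change from all 6 pools on the horizontal axis and from the fit without control L on the vertical axis. Genes called with all pools (red) lie near the line of equal values, and ribosomal proteins (open circles) lie mostly above it, with medians of -0.42 and -0.39 against -0.10.

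Positions of the genes added a pattern that no gene list held. Windows of 50 neighbouring tested genes (226 windows, the last of a chromosome taking the remainder) had medians between -0.28 and 0.18 from the 5th to the 95th percentile. The 3 highest medians were on chromosome 22 (0.34 and 0.31) and chromosome 10 (0.28), and the 3 lowest were 2 windows of chromosome 11 (-0.51 and -0.50) and the first window of chromosome 13 (-0.47). Without control L the same windows were at 0.35, 0.40 and 0.15, and at -0.27, -0.29 and -0.47, in that order. The ranking changed in that fit, with the chromosome 11 window from 66744451 at 0.38 and the one from 60924460 at -0.37. Neighbouring windows were then joined where they moved alike, a choice made after their values were seen, so no test is given. Chromosome 7 held a longer and shallower stretch. Between 56011051 and 158830253, 97 of 393 tested genes were above 0, with a median of -0.20 (-0.18 without control L) and window medians of -0.37 to -0.15, and 25 fell, CADPS2, AASS and AKR1B10 among them, and 7 rose, ABCB1 and INSIG1 among them.

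On chromosome 22, 153 of 195 tested genes between 29883169 and 50801309 were above 0, with a median log2 fold change of 0.30 (0.34 without control L), and 33 rose and 0 fell. In HCQ-evolved L, M and R the median was 0.37, 0.28 and 0.29 above the control mean. The 100 genes before this stretch had a median of -0.11, and 0 rose and 2 fell. Genes that rose there included APOL1, APOL2, APOL4 and APOL6, MYH9, the glucose transporter SLC5A1, MGAT3 and ELFN2, a synaptic adhesion protein gene that went from 2.49, 2.74 and 2.11 CPM to 29.4, 36.7 and 34.8 CPM (3.78, SE 0.17, adjusted p = 0.00032). Of 5 tested APOL genes 4 rose, and APOL3 was neither called nor above 0. All 4 tested APOBEC3 cytidine deaminases, which lie together in this stretch, rose. APOBEC3C was at 3.37, 2.56 and 3.91 CPM in control and 14.6, 9.54 and 20.7 CPM in HCQ-evolved pools, and APOBEC3B was at 6.72, 6.82 and 6.71 CPM against 15.0, 13.8 and 13.2 CPM (log2 fold changes 2.19 and 1.05). These genes are close in sequence and share reads.

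Chromosome 11 was split. Between 127204 and 66744670, 68 of 400 tested genes were above 0, with a median of -0.36 (-0.29 without control L), 37 fell and 5 rose, and the medians of all 8 windows lay between -0.51 and -0.20. ASCL2, MUC5AC, CD44 and IFITM2, named in their lists above, were among those that fell, and LDHA and UBE2L6 among those that rose. The next window, up to 70385312, had 38 of 50 genes above 0 and a median of 0.22 (0.38 without control L), with ANO1, FADD and PPFIA1 among the 7 that rose and 0 that fell. From CTTN onward to the end of the chromosome the median of 255 genes was 0.01. CTTN, the actin regulator cortactin, was at 507, 692 and 706 CPM in control and 1075, 1124 and 1148 CPM in HCQ-evolved pools (0.81, SE 0.16, adjusted p = 0.0316).

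On chromosome 13 the first window, 19633659 to 31332276, had 8 of 50 genes above 0 with a median of -0.47 with and without control L, and 6 fell and 2 rose. Among those that fell were GTF3A and POLR1D, of RNA polymerase III and I transcription, at 475, 249 and 288 CPM and 382, 301 and 323 CPM in control and 145, 129 and 147 CPM and 239, 226 and 206 CPM in HCQ-evolved pools. CDX2 lies in the same window and rose. The HCQ-evolved pools were 0.43, 0.42 and 0.35 below the control mean over this window in L, M and R. The rest of the chromosome, 31846713 to 114337626, was also low but less so. There 58 of 166 tested genes were above 0, with a median of -0.14 (-0.15 without control L), and 10 fell and 2 rose. In cells labelled OVCAR3 the same genes had medians of 0.20 on the stretch of chromosome 7, 0.19 on chromosome 22, -0.03 on the first stretch of chromosome 11, 0.04 on the next window and 0.32 on the first window of chromosome 13, and the difference between lines was not tested for stretches.

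**Figure D5:**
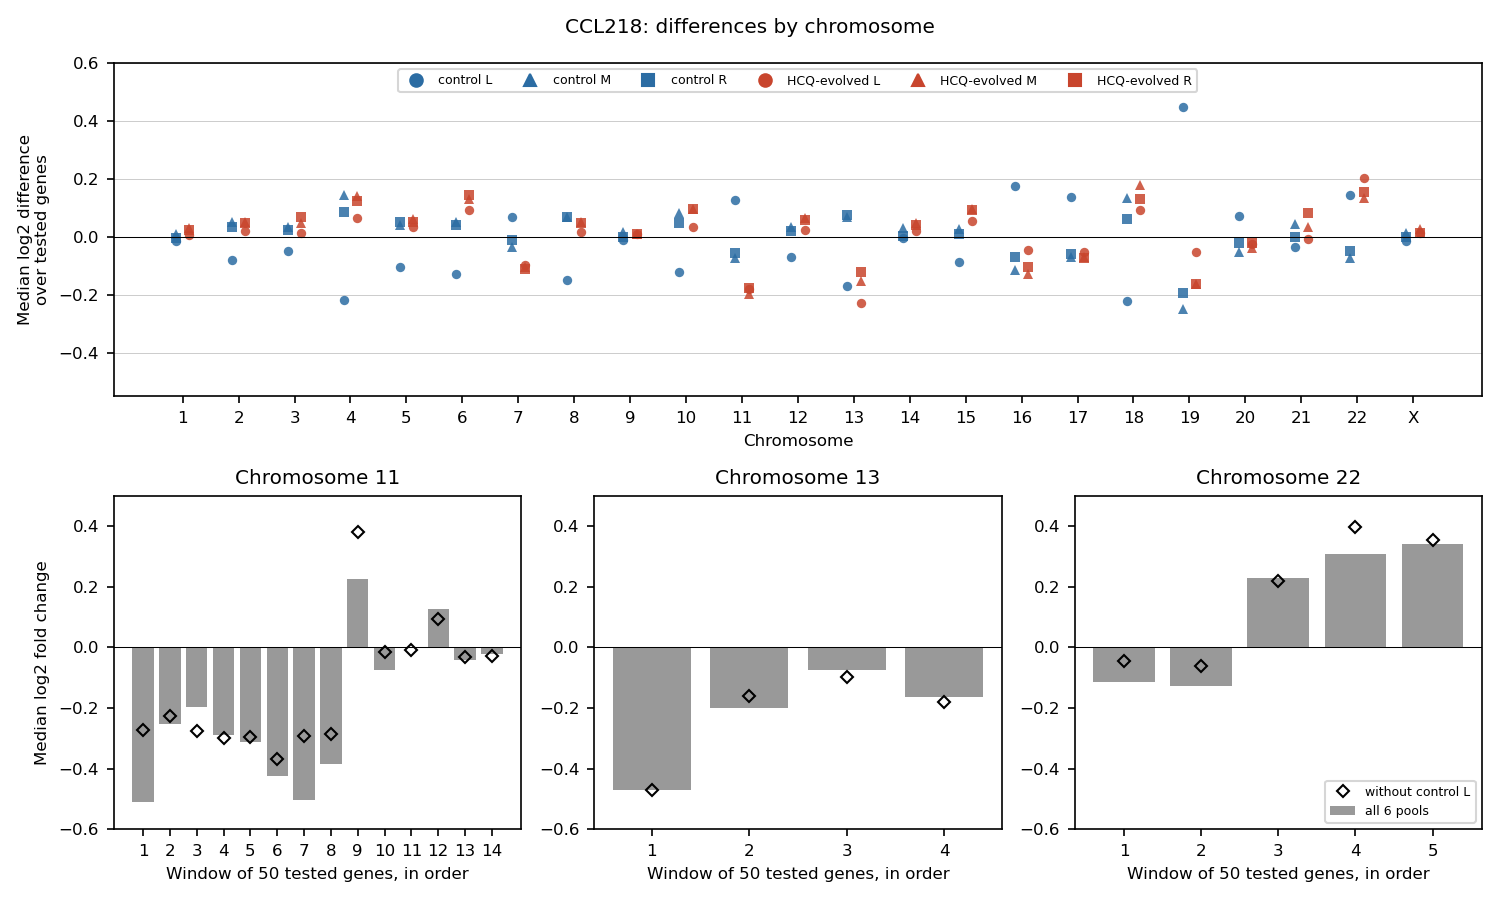
The upper panel gives, for each chromosome, the median log2 difference over tested genes of each control pool against the other control pools (blue) and of each HCQ-evolved pool against the mean of the control pools (red), with symbols for plate position. The lower panels give window medians in chromosome order for chromosomes 11, 13 and 22 with all 6 pools (bars) and without control L (diamonds), where the first 8 windows of chromosome 11 are below 0, the next is above 0, and the last 3 of chromosome 22 are above 0.

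Genes that stood out in a single pool were few. Counting genes at 5 CPM or more that were at least 4-fold above all other libraries, or at least 4-fold below all others, control L had 3 above and 5 below, and each of the other 5 pools had 0 of both. ADAM9, a membrane protease, was at 18.3 CPM in control L and 165 to 213 CPM in the other 5 pools, and the long noncoding RNA KCNQ1OT1 was at 44.7 CPM there and 2.71 to 10.4 CPM elsewhere. KCNQ1OT1 was not called with all pools (-2.71, adjusted p = 0.0596), and was called with position as a block (-2.24, adjusted p = 0.0167) and without control L (-1.507, adjusted p = 0.000499). Over genes at a mean of 5 CPM or more, the median coefficient of variation was 7.87% among HCQ-evolved pools and 18.2% among control pools, or 6.29% between control M and control R.

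A fit over all 12 libraries tested whether the CCL218 change differed from the change in cells labelled OVCAR3, and 110 of 12613 genes (0.872%) passed by edgeR's interaction term. In control pools the libraries labelled OVCAR3 had some intestinal markers at levels like those of CCL218, such as VIL1 at 229 ± 46 CPM (SD, n = 3) against 197 ± 13 CPM and EPCAM at 870 ± 156 against 829 ± 150 CPM, and others lower, such as REG4 at 1.61 ± 0.32 against 47.1 ± 7.0 CPM and CDX2 at 10.3 ± 2.2 against 24.4 ± 3.1 CPM. Of the ovarian lineage factors PAX8 was at 11.4 ± 2.4 against 8.74 ± 2.73 CPM, and WT1 and SOX17 were under 1 CPM in the mean of both. CDKN1A rose by 1.19 in CCL218 and changed by -1.35 in cells labelled OVCAR3 (difference 2.56, adjusted p = 0.000539). The log2 fold changes of CDH17, CEACAM6 and CYP2J2 were above those in cells labelled OVCAR3 by 3.71, 3.56 and 3.46, and CDH17 and CEACAM6 had values of 0.07 and -0.75 there. CYP2J2 was below the expression filter in the libraries labelled OVCAR3 alone, so its difference rests on low counts in that line. EPHB2 differed by 2.57 and NNMT by -2.31, with a larger decrease in CCL218. For the hypoxia genes BHLHE40 and P4HA2 the increase in CCL218 was larger by 1.66 and 1.01 (adjusted p = 0.0197 and 0.0435), with changes in cells labelled OVCAR3 of 1.02 (adjusted p = 0.0517) and 1.35 (adjusted p = 0.0186).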

How the data were processed

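Bulk RNA-seq libraries of 3 control and 3 HCQ-evolved CCL218 pools were used. The 6 libraries labelled OVCAR3 entered the interaction test, a refit over all 12 libraries and a fit of their own. Their levels and changes are given only beside those of CCL218. The authors aligned reads of 150 bases to hg38 with STAR, removed duplicates with RmDup and deposited raw counts per gene from featureCounts. The versions and the strand setting are not given in the sources used here. A column of counts was used for each library and no other column of values.

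Counts were scaled by TMM in edgeR 4.0.16 (R 4.3.3), and genes with 1 CPM or more in at least 3 of the 6 libraries were tested with a robust quasi-likelihood F test for HCQ-evolved against control, with Benjamini-Hochberg adjustment over all 12241 genes and a threshold of 0.05. The SE is the log2 fold change divided by the square root of F. The scripts were tested on simulated counts with known changes. Every library held 41399593 counts or more, and the spread between pools sets the precision of abundant genes. Levels well under 1 CPM (CADPS2 and AASS in HCQ-evolved pools, MT1X in control pools) rest on few counts, and counting error is large there. Genes under 1 CPM in every pool of a group met the expression filter only through the other group, so the filter favoured the direction they took.

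Plate position was checked as a pairing. Deviations from group means of pools with the same letter correlated at 0.54 (L), 0.27 (M) and 0.23 (R) over genes, all above 0.1. Control M correlated more with HCQ-evolved R (0.47) than with HCQ-evolved M, and control R with HCQ-evolved M at 0.12. These values therefore do not settle whether pools are paired by letter. The main results come from the unpaired fit that the study's methods imply, and a fit with position as a block was run beside it.

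Named genes were the 15 highest and 15 lowest log2 fold changes among called genes with a mean of 5 CPM or more in the higher group and no overlap, the 10 most abundant called genes in each direction, up to 6 called members of each of 46 lists (otherwise the member with the smallest p), the cell type markers, the 3 genes with the largest gap in each pool, and genes the study names. Further members of a list or stretch were named after their values were seen. Members, lists and tests were chosen with earlier results of these data known, so no list has a test. Some items are not reported here. Positions are from GENCODE 44, matched by symbol for 91.1% of genes. Alternatives were RLE factors, total counts, other filters, the block, a fit with the length and GC trend removed, all 12 libraries, each pool left out, DESeq2 1.42.0 and limma 3.58.1.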

Additional observations from a re-analysis of the deposited data

Results flagged for a closer look

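Genes named in the text were listed when the interaction term over all 12 libraries, edgeR's quasi-likelihood test with Benjamini-Hochberg adjustment, passed an adjusted p of 0.05, so that the CCL218 change differed from the change in cells labelled OVCAR3. No group had the 4 samples that the check for a single deviating sample needs. The difference is given as the CCL218 log2 fold change minus the one in cells labelled OVCAR3.

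For surface and adhesion genes the difference was 3.71 for CDH17, 3.56 for CEACAM6, 2.91 for CEACAM7 (adjusted p just under 0.05), 2.07 for CEACAM5, 2.52 for ELFN2 and 2.57 for EPHB2. CEACAM6 rose by 2.79 in CCL218 against -0.75 in cells labelled OVCAR3. For the matrix genes SERPINE2 and TIMP2 the difference was 1.78 and 1.07.

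The cyclin-dependent kinase inhibitor CDKN1A differed by 2.56, the transcriptional regulator ID3 by 3.49, the differentiation factor KLF4 by 2.499 and the cytochrome P450 genes CYP2J2 and CYP4F3 by 3.46 and 2.17. ID3 and CYP2J2 were below the expression filter in the libraries labelled OVCAR3 alone, so no separate change was fitted for them there. BHLHE40 and P4HA2, of the hypoxia list, differed by 1.66 and 1.01 and had log2 fold changes above 0 in both lines.

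In 4 genes the difference was negative. AASS (-3.05), a lysine catabolic enzyme, fell with levels of 0.0763 to 2.54 CPM over the CCL218 pools, and was below the expression filter in the libraries labelled OVCAR3 alone. NNMT (-2.31) fell further in CCL218, SLC39A8 (-1.25) had a log2 fold change of -1.06 against 0.22, and IFI44L (-3.04) had a smaller increase in CCL218, at 1.22 against 4.29.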

How the results depend on the processing

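Counts of genes that rose and fell (468 and 323) moved by over 1.5 times in several settings. Plate position as a replicate block, which pairs pools by the shared letter, gave 957 and 787. Removing the trend with transcript length and GC content gave 1171 and 1195, and 1094 and 1017 with the block as well. DESeq2's Wald test gave 1104 and 1068. Leaving out 1 pool at a time gave 72 to 1646 higher and 30 to 1401 lower, the lowest without HCQ-evolved M and the highest without control L. The other settings (RLE factors, total counts, no expression filter, 1 CPM in all 6 libraries, all 12 libraries in one fit, limma voom) stayed within 1.5 times. Settings that changed the split between directions by over 10 percentage points were the fits without control R and without each HCQ-evolved pool, with 70.6% to 77.2% of calls higher against 59.2%. None of the 791 called genes changed sign in any setting in which it was tested. The block changed 3 calls among the genes named in the text, CENPA, KCNQ1OT1 and MUC2, and no other. Of the calls of named genes, 98, 106 and 99 were lost without HCQ-evolved L, M and R, 100 and 47 without control R and M, 32 with all 12 libraries in one fit, 13 with total counts, 13 with 1 CPM in all 6 libraries and 12 without a filter.

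Genes not called were near 0 and could change sign. CEACAM1 was at -0.038 with the length and GC trend removed, -0.037 with the block as well, and -0.071 to 0.13 with 1 pool left out. HIF1A ranged from -0.10 (without control L) to 0.50 and VIL1 from -0.074 to 0.074 with 1 pool left out. VIL1 was at 0.011 without a filter, and ATG101 at 0.030 with the length and GC trend removed and the block. The cause was not tested. List medians stayed within the spread between pools in 674 of 720 refits. The exceptions include the ribosomal protein, respiratory chain and secretory medians without control L, given above.

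With 3 pools per group from 1 plate each, p-values measure the spread between these pools only. Changes under about a log2 fold change of 0.51 (higher) or 0.47 (lower) were not called for any gene with all pools.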

Other observations

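Other lists were mixed or small in these pools. Counts are from edgeR with all pools, and those with position as a block and without control L follow where they differ by over 1.5 times. Over all genes tested 3.82% rose and 2.64% fell, 7.82% and 6.43% under the block, and 13.6% and 11.6% without control L. Of 10 listed metallothionein and zinc genes 5 were tested, and of these 2 rose and 0 fell, around a median of 1.23. MT1X, a metal-binding protein gene, was at 0.207, 0.183 and 0.135 CPM in control and 1.64, 1.18 and 1.09 CPM in HCQ-evolved pools (log2 fold change 2.88, SE 0.34), and SLC30A1, a zinc exporter, rose by 1.23, with 3 higher under the block and 4 without control L. Among 31 NRF2 and antioxidant genes AKR1C3 and AKR1B10 fell by 1.64 and 0.74 on the log2 scale and 0 rose (6 lower and 1 higher at an unadjusted p under 0.05, 3 and 0 by DESeq2, 3 and 1 under the block, 6 and 1 without control L). NF-kappaB feedback genes had 4 of 25 higher (BIRC3, BIRC2, ICAM1 and TNIP1) and CXCL8 lower, and their median changed sign from -0.13 to 0.09 without control L, where 5 were higher and 6 lower (5 and 4 under the block). Of 33 apoptosis genes 3 rose, which were BIRC2, BIRC3 and CDKN1A, against 6 higher and 2 lower under the block and 6 and 3 without control L. Heat shock chaperones had 3 of 29 lower (HSPA2, BAG1 and CHORDC1) and 0 higher, against 7 and 1 at an unadjusted p under 0.05, 5 and 1 by DESeq2, and 8 and 0 without control L.

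Among 42 immediate early and ERK feedback genes KLF4 and ID3 rose and SPRY4 and ID2 fell (4.76% each way, against 3.82% and 2.64% of all genes). There were 12 higher and 4 lower under the block and 16 and 8 without control L. KLF4, a factor of differentiated gut epithelium, was at 18.9, 21.9 and 20.3 CPM in control and 57.4, 57.3 and 50.2 CPM in HCQ-evolved pools (1.43, SE 0.13, adjusted p = 0.00253 in edgeR). Of 31 amino acid and urea genes TH (1.74, and 2.18 without control L) and ALDH18A1 rose and AASS and SLC14A1 fell (3 and 3 under the block, 7 and 6 without control L). Lists with few or no calls in edgeR were replication and G1/S genes (0 of 48), cohesin (0 of 15), EGFR ligands and receptors (0 of 13), ovarian and Mullerian markers (0 of 10), translation initiation factors (EIF4A2 higher of 40), the integrated stress response (DDIT4 and VLDLR higher of 32) and the unfolded protein response (1 lower of 30). At an unadjusted p under 0.05 the lists with 0 calls had 2 higher and 4 lower (replication), 1 and 0 (cohesin), 2 and 2 (EGFR) and 1 and 0 (ovarian), and by DESeq2 1 and 2, 0 and 0, 1 and 1, and 0 and 0. Under the block replication, EGFR and ovarian genes had 1 higher each and 0 lower, cohesin 0 and 0, initiation factors 1 and 2, the integrated stress response 3 and 1 and the unfolded protein response 0 and 3. Without control L replication genes had 1 higher and 5 lower, cohesin 0 and 1, EGFR genes 1 and 2, ovarian markers 4 and 1, initiation factors 2 and 9, the integrated stress response 6 and 4 and the unfolded protein response 2 and 2. The 26 listed genes of mitochondrial DNA were not analysed here. The most abundant genes that fell included the surface glycoprotein CD24 (564, 545 and 575 CPM in control, 413, 412 and 372 CPM in HCQ-evolved pools), the splicing factor SFPQ and the water channel AQP3 (-0.49, -0.67 and -0.97).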
